A study of Homo sapiens with 12 samples.

Results

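The replication-dependent histone genes are the 69 protein-coding genes whose GENCODE symbol starts with H2AC, H2BC, H3C or H4C and a digit, or is H1-1, H1-2, H1-3, H1-4 or H1-5. They were found by symbol among 61533 genes, and 65 of them passed the filter on low counts and were tested. RNA was measured in 12 libraries, 4 from each of 3 human ovarian cell lines, all labelled as wild type. T1074 is a line of ovarian epithelial cells immortalized with SV40. PEO-4 is a carcinoma line that the labels call ovarian cystadenocarcinoma and the paper calls high-grade serous. SKOV-3 is a carcinoma line that the labels call serous cystadenocarcinoma and the paper calls clear cell carcinoma. Each group is 1 cell line, so a difference between groups is a difference between lines, and p-values measure only the spread between the 4 replicates of cells, which may be technical.

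Histones are the proteins around which DNA is wound. The core histones H2A, H2B, H3 and H4 form the nucleosome, and the linker histone H1 binds the DNA between nucleosomes. Each is encoded by many small intronless genes that are transcribed together when DNA is replicated in S phase. Their messenger RNAs are not polyadenylated. They end in a conserved hairpin, the stem-loop, which the protein SLBP binds. The libraries were made from RNA depleted of ribosomal RNA, a step that does not select for poly(A) tails.

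The sequences show what unites these genes and what sets the H4 class apart. A hairpin was found within 150 bases after the stop codon of 68 of the 69 genes on hg38 with GENCODE 44, at 23 to 68 bases after the stop, and H2BC12L on chromosome 21 was the exception. In 40 genes the 16 bases read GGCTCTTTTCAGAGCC, and no H4 gene was among them. All 15 H4 genes had a stem that opens with GGCCC, with the form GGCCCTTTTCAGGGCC in 10 of them. The stem-loops of the genes on which the results below turn are given with the hairpin in capitals.
H4C6, chr6:26240778-26240793, plus strand: aaaaGGCCCTTTTCAGGGCCacctcct
H4C9, chr6:27139654-27139669, plus strand: aaaaGGCCCTTTTTAGGGCCcctaagc
H2BC6, chr6:26184210-26184225, plus strand: caaaGGCTCTTTTCAGAGCCactcacc
H1-3, chr6:26234217-26234232, minus strand: aaacGGCTCTTTTCAGAGCCacccaca
H3C6, chr6:26225596-26225611, plus strand: caaaGGCTCTTCTCAGAGCCaaccact

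The promoters differed by class as well. RefSeq promoter entries on hg38 were matched for 63 of the 69 genes, taking the start nearest before the gene's own stem-loop where a gene had several, and the 250 bases before the start were searched on both strands for 3 short words. CCAAT, the word that the factor NF-Y binds, was in 53 of 63 promoters, or 84.1%, against 32% of all 35116 promoters. It was in all 5 H1, 16 H2A, 18 H2B and 11 H3 promoters but in 3 of 13 H4 promoters. GGTCCG, the core of the H4 element that the factor HINFP binds, was in 12 of 13 H4 promoters and in 1 each of the H2A, H2B and H3 promoters, against 9.43% of all promoters. TATAAA was in 42 of 63, or 66.7%, against 10.7% of all. The 100 bases before the start are given for H4C6, H4C9 and H2BC6, each nearly without RNA in 1 line, and for H4C12, the H4 gene of highest level, with the 3 words in capitals.
H4C6, chr6:26240293-26240392, plus strand: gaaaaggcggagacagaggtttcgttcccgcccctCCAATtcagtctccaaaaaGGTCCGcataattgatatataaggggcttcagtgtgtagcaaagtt
H4C9, chr6:27139182-27139281, plus strand: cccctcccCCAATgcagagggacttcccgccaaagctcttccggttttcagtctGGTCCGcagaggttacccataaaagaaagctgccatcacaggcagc
H2BC6, chr6:26183661-26183760, plus strand: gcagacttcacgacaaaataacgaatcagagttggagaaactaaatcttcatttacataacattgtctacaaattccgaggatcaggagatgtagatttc
H4C12, chr6:27831561-27831660, minus strand: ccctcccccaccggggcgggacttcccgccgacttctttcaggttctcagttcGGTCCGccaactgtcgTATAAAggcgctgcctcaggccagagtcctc
H4C6 and H4C9 held both CCAAT and GGTCCG, H4C12 held GGTCCG and TATAAA, and the nearest CCAAT of H2BC6 lay 137 bases before its start, outside the stretch shown. A word in a promoter is a description of the sequence and not a binding site.

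As a family, the 69 genes were abundant in all 3 lines. Levels are given as CPM, read counts divided by library size after scaling with TMM factors, and summed over the genes they came to 10512, 10513, 5956 and 9282 CPM in T1074, 5439, 8624, 6349 and 5527 CPM in PEO-4, and 13464, 9261, 6517 and 5350 CPM in SKOV-3. The ranges of the 3 lines overlapped. In TPM, which divides by each transcript's effective length, T1074 libraries summed to 7843 to 23696, PEO-4 libraries to 4308 to 8931 and SKOV-3 libraries to 6277 to 15109. As a share of all counts of a library T1074 had 0.988% ± 0.268 (SD, n = 4), PEO-4 had 0.636% ± 0.172 and SKOV-3 had 0.815% ± 0.325. Libraries of 1 line differed from each other across the family. The highest library had 2.52-fold the histone CPM of the lowest in SKOV-3, 1.77-fold in T1074 and 1.59-fold in PEO-4. In SKOV-3, replicate 1 was the highest library for 63 of the 63 members with a mean of at least 1 CPM there, and replicate 4 the lowest for 58 of them. The median ratio of highest to lowest library was 2.92 for members against 1.31 for all genes in SKOV-3, 1.70 against 1.32 in PEO-4 and 2.14 against 1.68 in T1074. The part of this spread in the shares of genes called was not tested. In bulk RNA, fewer cells in S phase and less histone RNA per cell cannot be told apart.

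**Figure D1:**
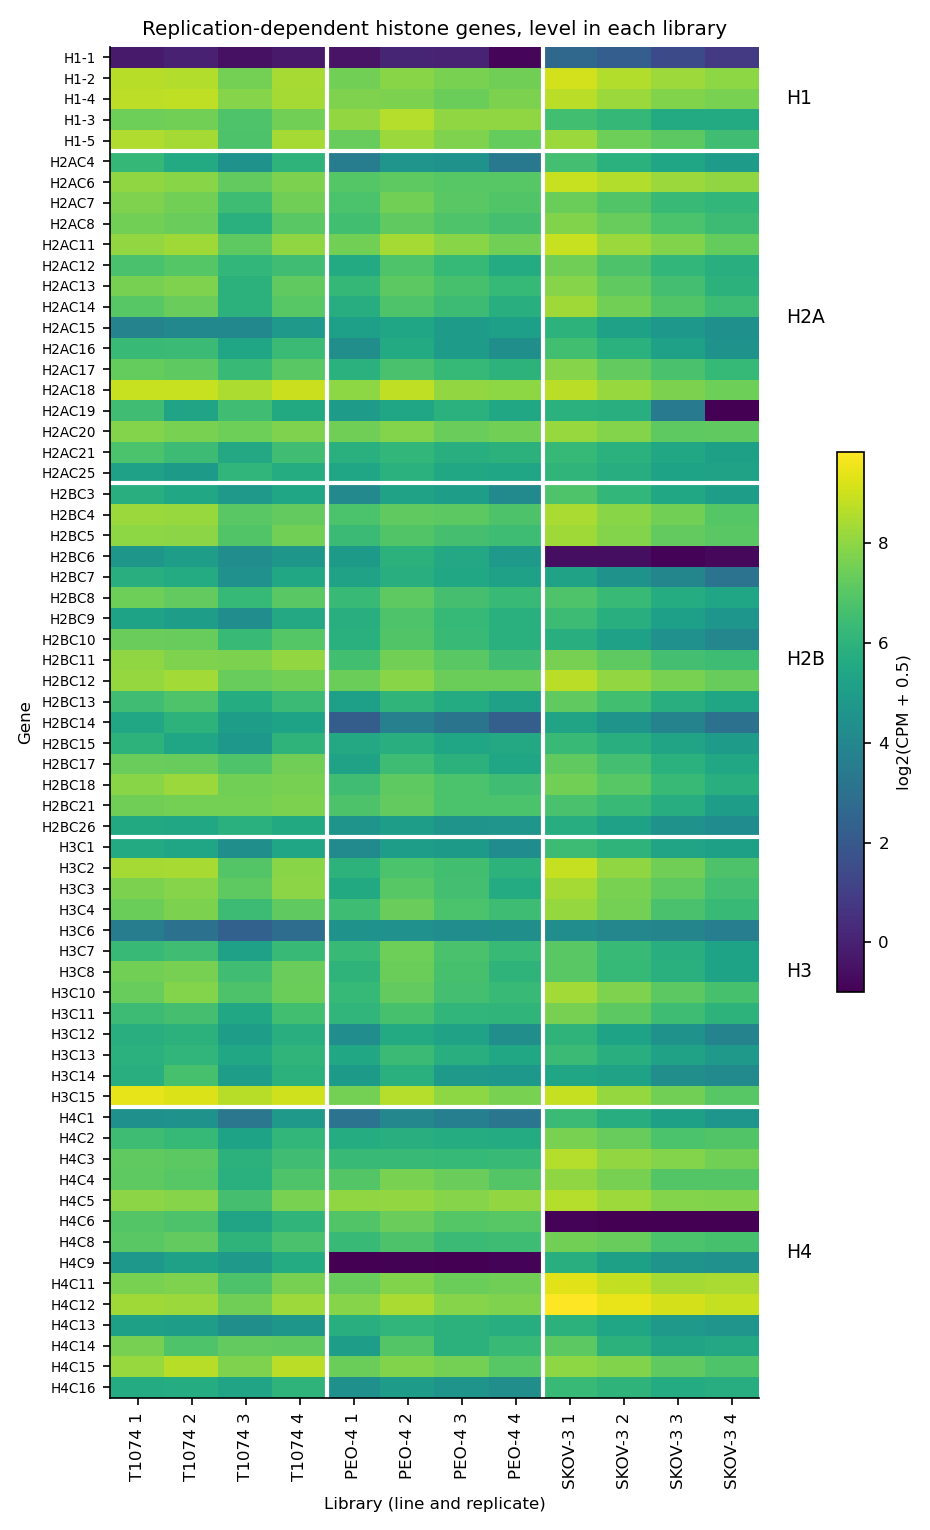
Heat map of log2(CPM + 0.5) for the 65 tested genes (rows, grouped by class and ordered along the chromosomes) in the 12 libraries (columns). H4C6 and H2BC6 are dark in all 4 SKOV-3 libraries, H4C9 is dark in all 4 PEO-4 libraries, and SKOV-3 replicate 1 is brighter than the other SKOV-3 libraries in most rows.

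Between the lines, histone RNA and the RNA of other S phase genes differed by unlike amounts. The 32 S phase genes set beside the family include genes of DNA replication and nucleotide supply, and also SLBP of the histone pathway. They summed to 3618 to 5058 CPM in T1074, 914 to 1297 CPM in PEO-4 and 840 to 1448 CPM in SKOV-3. Those ranges left a wide gap below T1074, while the histone sums overlapped. In edgeR's quasi-likelihood test 31 of the 32 fell in PEO-4 and 32 of 32 fell in SKOV-3, beside 37.8% and 34.5% of all genes. The median log2 fold changes of the 32 were -2.44 and -1.99. Across the 65 histone genes the medians were -0.60 and 0.03, and across all 19898 genes tested -0.01 and -0.03. Single libraries moved the histone medians. In PEO-4 the median became -0.38 and -0.37 without PEO-4 replicates 4 and 1, where the median of all genes was 0.08 and 0.09. It became -0.65 without PEO-4 replicate 2 and -0.69 without T1074 replicate 3, where that of all genes was 0.09 and 0.01. In SKOV-3 the histone median became -0.31 without SKOV-3 replicate 1, -0.14 without T1074 replicate 3 and 0.24 without SKOV-3 replicate 4. DTL, which marks replication factors for destruction, fell from a mean of 178 CPM to 7.35 CPM in PEO-4 and 25.2 CPM in SKOV-3, and TYMS, which makes thymidylate, from 163 CPM to 12.7 and 34.5 CPM. The S phase gene that missed the threshold in PEO-4 was SLBP. The ratio of histone CPM to S phase CPM within a library does not depend on the scaling between libraries. It was 2.91, 2.44, 1.18 and 2.18 in T1074, 5.94, 6.65, 5.62 and 6.05 in PEO-4, and 9.30, 8.45, 6.15 and 6.37 in SKOV-3. Every carcinoma library lay above every T1074 library.

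Genes of G2 and M phase, which build the spindle and divide the chromosomes, moved as the S phase genes did. All 24 fell in both carcinoma lines, beside 37.8% of all genes in PEO-4 and 34.5% in SKOV-3. The median log2 fold changes of the 24 were -2.24 in PEO-4 and -2.23 in SKOV-3. AURKB, a mitotic kinase, fell from 53.1 CPM to 5.48 and 4.85 CPM. The sum of the list was 1691 to 3465 CPM in T1074, 426 to 911 CPM in PEO-4 and 463 to 721 CPM in SKOV-3. Within SKOV-3, the order of the 4 libraries by histone sum was also their order by S phase sum, and within PEO-4 replicates 2 and 3 were the highest by both. T1074 replicate 3 had the lowest histone sum and the lowest G2 and M sum of its line but the highest S phase sum. The part of cell cycle stage in the histone levels was not tested.

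**Figure D2:**
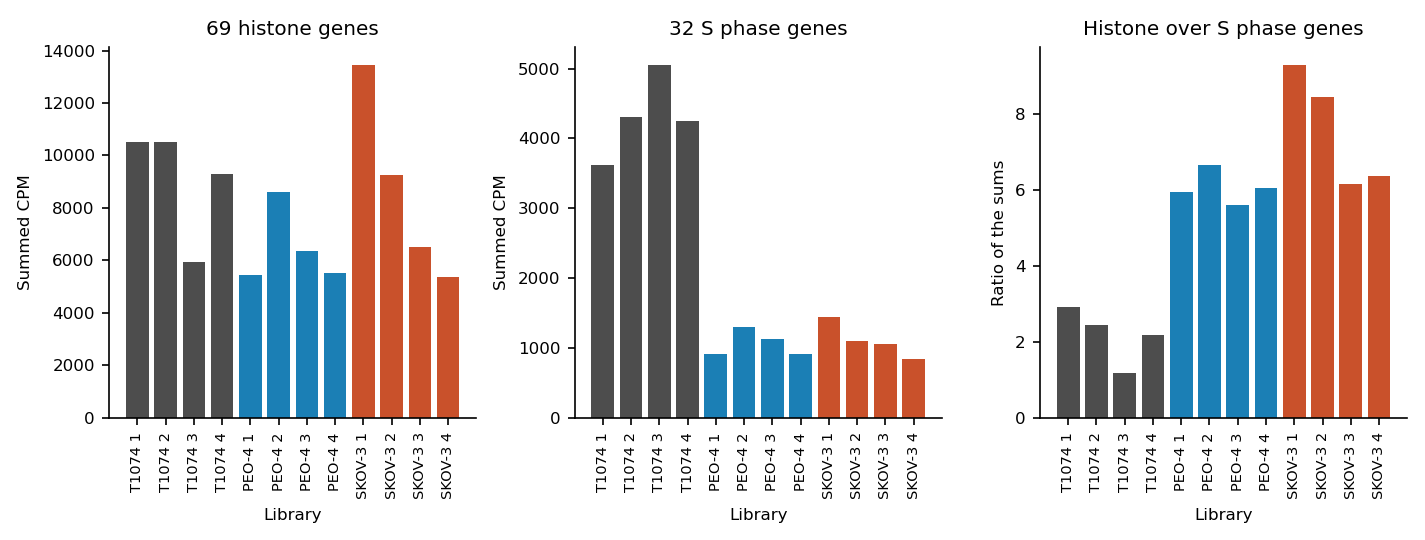
Summed CPM of the 69 histone genes (left), summed CPM of the 32 S phase genes (middle) and the ratio of the sums (right) in each of the 12 libraries. The histone sums of the 3 lines overlap, the S phase sums of the carcinoma lines are at most 1448, and the ratios of the carcinoma libraries are all at least 5.62.

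Single histone genes were compared between the lines with edgeR, with p-values adjusted over all 19898 genes. In PEO-4 against T1074, 25 of 65 were lower, or 38.5%, beside 37.8% of all genes, and 7 were higher, or 10.8%, beside 36.3%. With all 12 libraries, the share that was lower was near the background. In SKOV-3 against T1074, 18 were lower, or 27.7% against 34.5% of all genes, and 9 were higher, or 13.8% against 33.3%. Comparing PEO-4 with SKOV-3, 23 were lower in PEO-4, 35.4% against 36.7%, and 7 were higher, 10.8% against 38.5%. Both comparisons with T1074 share its 4 libraries. Of the 65 genes, 10 were lower in both carcinoma lines, 2 were higher in both, 3 were higher in PEO-4 and lower in SKOV-3, 2 the reverse, and 23 passed the test in neither.

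These counts rest in part on single libraries. The 25 lower genes of PEO-4 became 15, 16 and 13 without PEO-4 replicates 1, 3 and 4, and 34 without T1074 replicate 3. The 18 lower genes of SKOV-3 became 10 without replicate 3 or 4 and 11 without T1074 replicate 1 or 2. They became 23 without SKOV-3 replicate 1. The 9 higher genes of SKOV-3 became 14 without SKOV-3 replicate 4. Without SKOV-3 replicate 1, the 7 genes higher in PEO-4 than in SKOV-3 became 11. The shares of all genes called with a library left out are not given, here or below. Counts with a library left out therefore describe the members only.

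**Figure D3:**
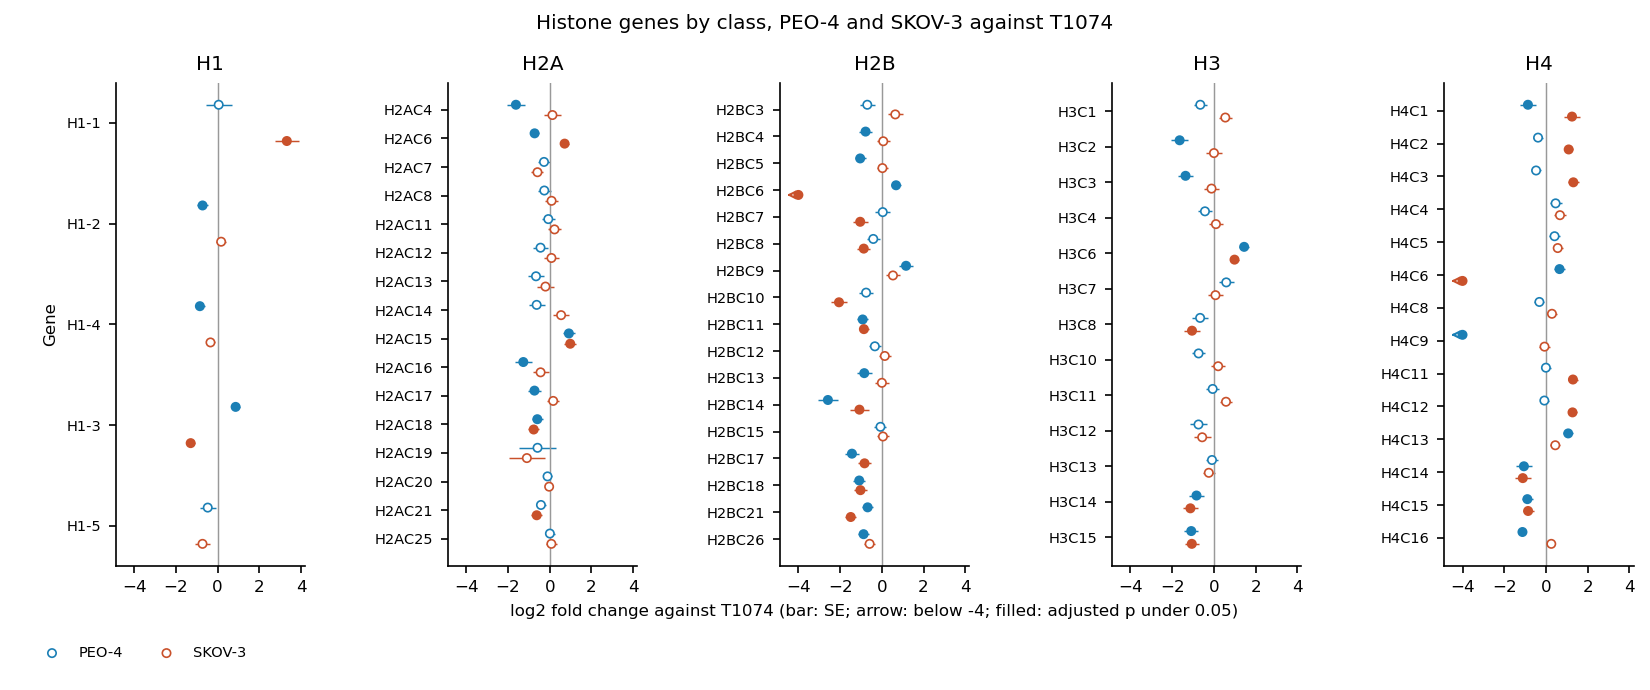
Log2 fold change against T1074 of each tested gene in PEO-4 (blue) and SKOV-3 (orange), by class, with bars for the standard error, filled points where edgeR's adjusted p is under 0.05 and arrows for values below the axis. H2BC6 and H4C6 in SKOV-3 and H4C9 in PEO-4 lie beyond the left edge, and H4C11, H4C12 and H4C3 lie to the right in SKOV-3.

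The clearest differences were single genes that were nearly without RNA in 1 line. H4C6 encodes the same histone H4 as its sister genes and lies in the distal cluster of chromosome 6, at chr6:26240393-26240793 on the plus strand. It had 122, 109, 39.5 and 67.8 CPM in T1074 and 116, 163, 124 and 129 CPM in PEO-4. In SKOV-3 it had 2 counts in replicate 1 and 0 in each of the other 3 libraries, where 3 counts correspond to 0.0576 to 0.0642 CPM. The lines did not overlap. From the summed counts, T1074 was 7939-fold higher than SKOV-3, with a 95% interval of 2197 to 65565 that covers counting error only. In edgeR the adjusted p for SKOV-3 against T1074 was 2.15e-10, and the log2 difference of 0.65 ± 0.27 (SE) between PEO-4 and T1074 had an adjusted p of 0.0437. That smaller difference lost its call without T1074 replicate 3 or 4, PEO-4 replicate 2, or SKOV-3 replicate 1, 2 or 3, with adjusted p of 0.0530 to 0.104, and with scaling by library size only (adjusted p = 0.127) and length-scaled TPM (0.0761).

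H4C9, another H4 gene, was nearly without RNA in the other carcinoma line. It lies in the proximal cluster at chr6:27139282-27139678, plus strand. Its level was 27.0, 36.1, 28.2 and 50.5 CPM in T1074 and 54.3, 35, 24.1 and 22 CPM in SKOV-3. In PEO-4 it had 0, 1, 0 and 2 counts. T1074 and SKOV-3 overlapped with each other and both lay far above PEO-4. The sum of T1074 was 2055-fold that of PEO-4 (95% interval 703 to 9968, counting error only), with an edgeR adjusted p of 4.39e-10, whereas SKOV-3 against T1074 had an adjusted p of 0.840.

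H2BC6, an H2B gene of the distal cluster whose annotation spans chr6:26172059-26184655 on the plus strand, was nearly without RNA in SKOV-3. It had 25.9, 32, 19 and 25.8 CPM in T1074, 29.3, 61.3, 45.8 and 28.5 CPM in PEO-4, and 8, 8.25, 2 and 3.77 expected counts in SKOV-3. All SKOV-3 libraries lay at or below 0.156 CPM. T1074 was 233-fold higher than SKOV-3 (95% interval 154 to 372, counting error only), with an edgeR adjusted p of 3.74e-10. Against T1074, PEO-4 was higher by 0.68 ± 0.24 (SE) on the log2 scale, with an adjusted p of 0.0182 and overlapping libraries, a call lost when scaled by library size only (adjusted p = 0.0818) and with length-scaled TPM (0.0621).

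Apart from H4C7, RNA of the neighbors of these 3 genes was detected in every library of the same line. On one side of H4C6, H1-3 had a mean of 162 CPM in T1074 and a lower one of 66.0 CPM in SKOV-3, a called fall. On the other side, past H4C7, H3C7 had 71.9 and 75.8 CPM. On either side of H2BC6, H2BC5 had 199 and 203 CPM and H4C4 had 109 and 174 CPM in T1074 and SKOV-3. Beside H4C9, H2AC11 had 245 and 233 CPM and H2BC12 had 234 and 186 CPM in T1074 and PEO-4. H4C7, between H4C6 and H3C7, had 0 counts in all 12 libraries, which allows up to 3 counts a library. H2AC1 had 2 counts and H2BC1 had 3 counts over all libraries, and H2BC12L had 0 to 11.6 counts a library. These 4 were the members that were not tested. H2AC1 and H2BC1 are testis histone genes.

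**Figure D4:**
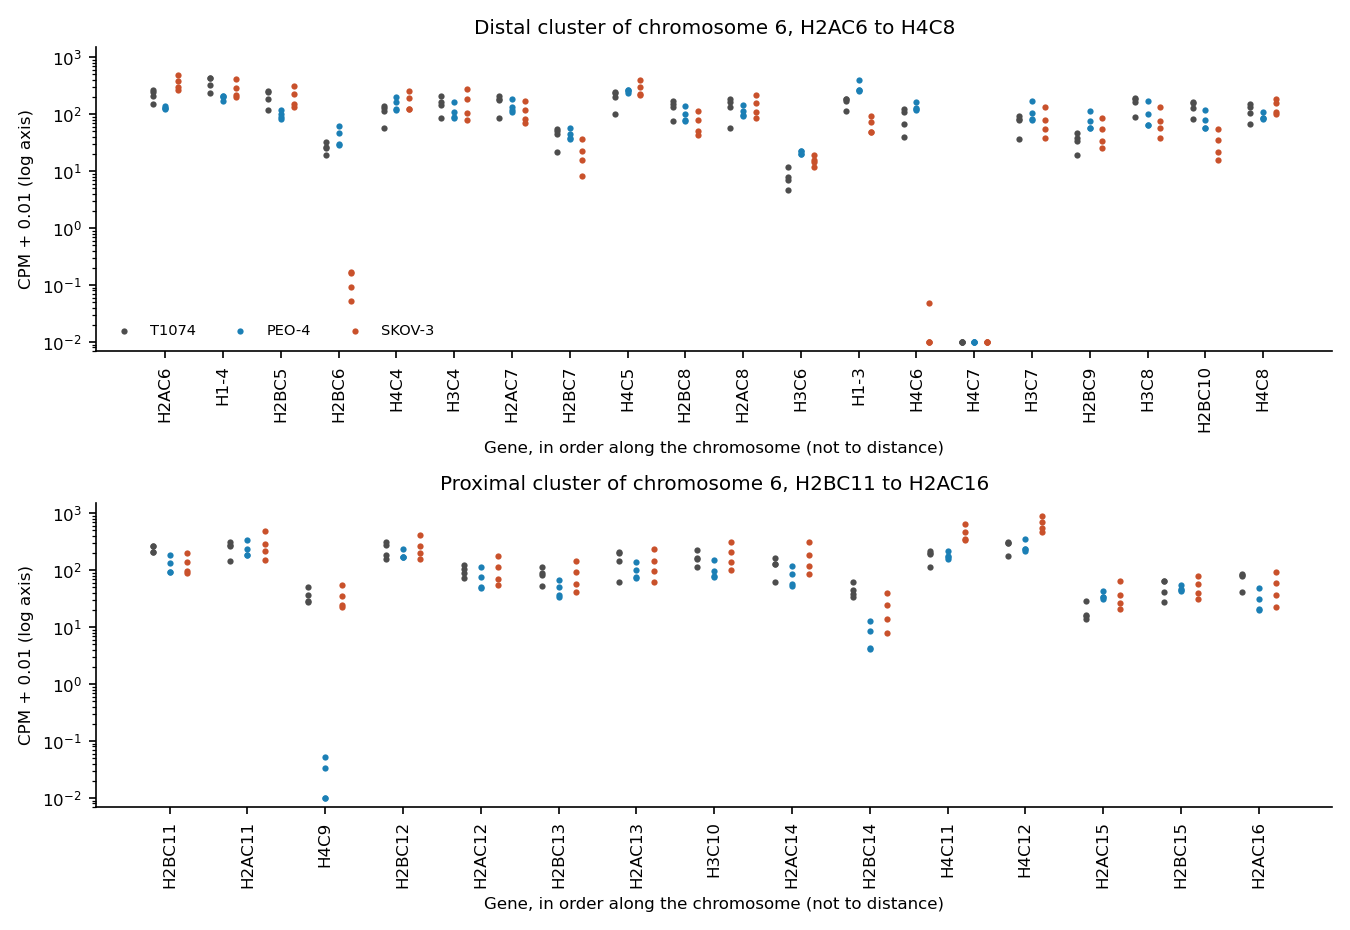
CPM + 0.01 on a log axis for genes in their order along the distal (top) and proximal (bottom) clusters of chromosome 6, with 1 point for each library of T1074 (gray), PEO-4 (blue) and SKOV-3 (orange). H2BC6 and H4C6 drop in SKOV-3 and H4C9 drops in PEO-4. The genes beside them have RNA in all libraries except H4C7, next to H4C6, which is at 0 in all lines.

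Of 14 tested H4 genes, 5 were higher and 3 lower in SKOV-3 than in T1074, with a median log2 fold change of 0.51, beside 33.3% of all genes higher and 34.5% lower. The 5 became 8 without SKOV-3 replicate 4. In PEO-4, 2 H4 genes were higher and 5 lower than in T1074, with a median of -0.35, beside 36.3% and 37.8% of all genes. Those 5 became 3 without PEO-4 replicate 1 or 3 or T1074 replicate 1, 2 without PEO-4 replicate 4 and 8 without T1074 replicate 3, and the 2 became 1 without PEO-4 replicate 2, T1074 replicate 3 or 4, or SKOV-3 replicate 1, 2 or 3. H4C12, the most abundant H4 gene by TPM, had 306, 294, 179 and 303 CPM in T1074, 232, 351, 230 and 213 CPM in PEO-4, and 904, 698, 551 and 464 CPM in SKOV-3. All SKOV-3 libraries lay above all others. The log2 fold change was 1.28 ± 0.23 (SE) against T1074, with an edgeR adjusted p of 2.04e-04. H4C11, which shares 91.4% of its 75-base stretches with H4C12, had 201, 213, 112 and 194 CPM in T1074, 156, 219, 169 and 176 CPM in PEO-4, and 637, 456, 330 and 345 CPM in SKOV-3. Reads from the shared stretches cannot be told apart, and counted as 1 feature the pair rose by 1.28 ± 0.23 (SE) in SKOV-3. H4C3 had 143, 136, 62.3 and 90.3 CPM in T1074, 76.3 to 79.1 CPM in PEO-4, and 397, 271, 225 and 182 CPM in SKOV-3. The T1074 and SKOV-3 libraries of H4C3 did not overlap, and the log2 fold change was 1.31 ± 0.25 (SE), adjusted p = 3.63e-04 in edgeR.

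H4C1 had 21.2, 23.2, 9.41 and 28.7 CPM in T1074, 8.08, 15.8, 12.4 and 9.02 CPM in PEO-4, and 82.7, 53.7, 34.7 and 25.2 CPM in SKOV-3. PEO-4 lay below SKOV-3 in every library, with a log2 difference of -2.11 ± 0.38 (SE) and an edgeR adjusted p of 1.50e-04. Its fall in PEO-4 against T1074 had an adjusted p of 0.0482 and was lost without PEO-4 replicate 1, 3 or 4, T1074 replicate 1, 2 or 4, or SKOV-3 replicate 2. It was also lost with size factors of the RLE method (adjusted p = 0.0680), protein-coding factors (0.0807), factors without the histone genes (0.0512), a minimum of 50 counts in 4 libraries (0.0676) and a replicate block (0.0661). H4C13, a gene of the proximal cluster, was the H4 gene that rose most in PEO-4. It had 34.6, 33.2, 20.3 and 25.9 CPM in T1074, 55.9, 69.7, 60.7 and 52.4 CPM in PEO-4, and 61.8, 40.9, 28.2 and 24.4 CPM in SKOV-3. PEO-4 did not overlap with T1074, with a log2 fold change of 1.07 ± 0.25 (SE) and an adjusted p of 0.00147, while SKOV-3 overlapped with both.

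As a share of all histone counts, the H4 class made up 18.7% to 20.2% for T1074, 22.1% to 25.6% for PEO-4 and 27.0% to 34.2% for SKOV-3. The 3 ranges did not overlap. The H2B class made up 21.5% to 25.4%, 19.6% to 20.7% and 16.1% to 17.9%, in the reverse order and also without overlap. The H2A share was 23.9% to 25.7% over all 12 libraries. These shares are descriptions over the members and have no test. H4C12 alone made up 2.99% of histone counts for T1074, 3.95% for PEO-4 and 7.85% for SKOV-3.

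**Figure D5:**
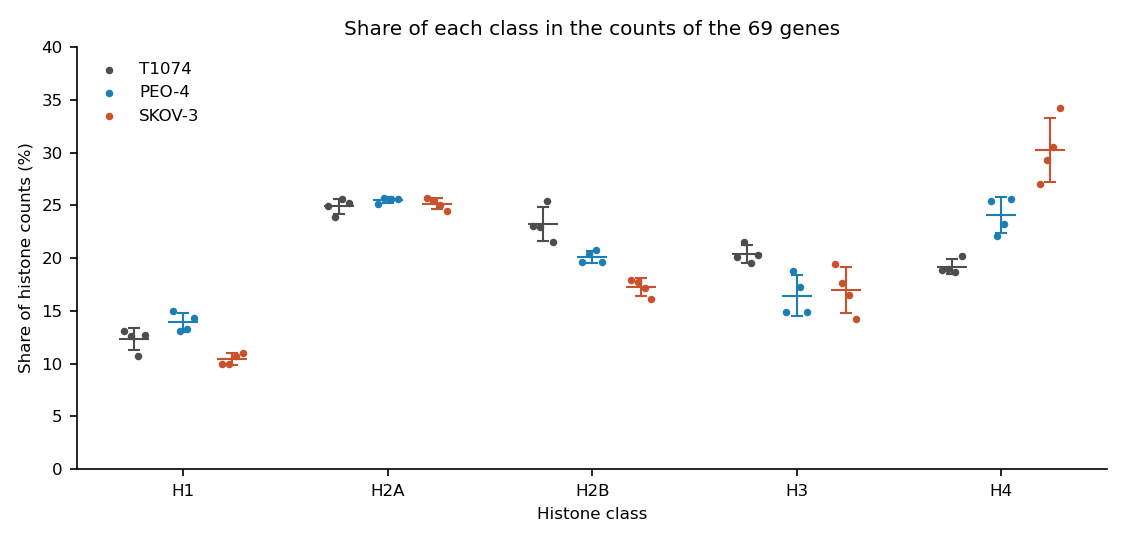
Share of each histone class in the counts of the 69 genes, with 1 point per library and the mean ± SD of 4 libraries, for T1074 (gray), PEO-4 (blue) and SKOV-3 (orange). The H4 share rises from T1074 to PEO-4 to SKOV-3 and the H2B share falls in that order without overlap, while the H2A shares lie between 23.9% and 25.7% in all lines.

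Of 17 tested H2B genes, 9 were lower in each comparison with T1074, or 52.9%, beside 37.8% of all genes in PEO-4 and 34.5% in SKOV-3. The difference from all genes was not tested. None rose in SKOV-3 and 2 rose in PEO-4. Leaving out SKOV-3 replicate 3 or 4, or T1074 replicate 1 or 2, left 5 lower H2B genes in SKOV-3, and without SKOV-3 replicate 4 also 1 higher. In PEO-4 the 9 lower H2B genes became 6 without PEO-4 replicate 1, 3 or 4. They became 7 without T1074 replicate 1, 2 or 4, and 10 without T1074 replicate 3 or SKOV-3 replicate 1 or 4. H2BC14 had 44.3, 62.5, 33.2 and 38.2 CPM in T1074, 4.10, 12.8, 8.47 and 4.33 CPM in PEO-4, and 39.3, 23.8, 13.8 and 7.79 CPM in SKOV-3. In PEO-4 every library lay below T1074, with a log2 fold change of -2.58 ± 0.46 (SE) and an edgeR adjusted p of 1.51e-04. H2BC10 had 163, 158, 80.7 and 126 CPM in T1074, 57.4, 119, 79.0 and 57.4 CPM in PEO-4, and 54.0, 35.7, 21.9 and 15.5 CPM in SKOV-3. SKOV-3 lay below both other lines without overlap, with a log2 fold change of -2.05 ± 0.36 (SE) and an adjusted p of 1.55e-04 against T1074. H2BC9 was an exception that rose in PEO-4, with 38.1, 33.2, 19.2 and 45.9 CPM in T1074, 57.0, 114, 76.6 and 57.3 CPM in PEO-4, and 83.9, 54.7, 33.9 and 25 CPM in SKOV-3. Its log2 fold change in PEO-4 was 1.16 ± 0.36 (SE), adjusted p = 0.00863. The H2B genes of highest TPM, H2BC12 and H2BC4, had means of 234, 186 and 258 CPM and of 214, 125 and 224 CPM in T1074, PEO-4 and SKOV-3. H2BC12 did not pass the test in any comparison, and the call for H2BC4 in PEO-4 (adjusted p = 0.0326 in edgeR) was lost without T1074 replicate 1 or 2, without each PEO-4 library in turn and with DESeq2's size factors in edgeR (adjusted p = 0.0508).

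Linker histone genes split between the lines. H1-3 had 170, 183, 114 and 180 CPM in T1074, 265, 394, 261 and 257 CPM in PEO-4, and 93.8, 72.6, 48.9 and 48.6 CPM in SKOV-3. The 3 lines did not overlap. It was higher in PEO-4 and lower in SKOV-3, with log2 fold changes of 0.86 ± 0.22 (SE) and -1.29 ± 0.23 (SE) and edgeR adjusted p of 0.00308 and 1.50e-04, and PEO-4 exceeded SKOV-3 by 2.16 ± 0.23 (SE), adjusted p = 1.03e-06. H1-1 was the rarest of the H1 genes. It had 7, 21, 8 and 13 counts in T1074, 8, 24, 24 and 3 counts in PEO-4, and 300, 219, 102 and 64 counts in SKOV-3, where all libraries lay above all others. The log2 fold change in SKOV-3 was 3.32 ± 0.56 (SE), adjusted p = 1.13e-04. H1-2 and H1-4 carried the most H1 RNA by TPM. H1-4 fell in PEO-4 from 426, 435, 230 and 326 CPM to 209, 203, 169 and 204 CPM, without overlap and with a log2 fold change of -0.85 ± 0.23 (SE), adjusted p = 0.00377. H1-2 had means of 329, 199 and 369 CPM in T1074, PEO-4 and SKOV-3, and its fall in PEO-4, adjusted p = 0.0168, was lost without T1074 replicate 1 or PEO-4 replicate 1, 3 or 4.

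Among the H2A genes, 5 of 16 were lower and 1 was higher in PEO-4, and 2 were lower and 2 higher in SKOV-3, beside 37.8% and 34.5% of all genes lower. The 5 became 2 without PEO-4 replicate 4 and 3 without PEO-4 replicate 1 or 3 or T1074 replicate 1, 2 or 4. The 2 lower in SKOV-3 became 0 without SKOV-3 replicate 3 or 4 and 1 without any other library except SKOV-3 replicate 1 and T1074 replicate 3. H2AC6 had 264, 240, 149 and 206 CPM in T1074, 123, 140, 127 and 129 CPM in PEO-4, and 476, 377, 293 and 263 CPM in SKOV-3. PEO-4 lay below both other lines, while T1074 and SKOV-3 overlapped at 1 value each. The log2 fold changes were -0.73 ± 0.19 (SE) in PEO-4 and 0.71 ± 0.19 (SE) in SKOV-3, with edgeR adjusted p of 0.00328 and 0.00415. H2AC11 and H2AC18, the H2A genes of highest TPM, had means of 245, 233 and 287 CPM and of 456, 302 and 267 CPM in T1074, PEO-4 and SKOV-3. H2AC11 did not pass the test in any comparison. H2AC18 is a near copy of H2AC19, and counted as 1 feature the pair had an adjusted p of 0.0544 in PEO-4 and 0.0143 in SKOV-3, where its log2 fold change was -0.81 ± 0.26 (SE).

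The H3 class had 4 of 13 genes lower and 1 higher in PEO-4, and 3 lower and 1 higher in SKOV-3, also beside 37.8% and 34.5% of all genes lower. The 4 became 2 without PEO-4 replicate 1 or 4, the 3 became 1 without T1074 replicate 2, and the 1 higher in SKOV-3 became 2 without SKOV-3 replicate 4. H3C2 had 325, 337, 122 and 239 CPM in T1074, 63.8, 107, 93.7 and 63.5 CPM in PEO-4, and 472, 262, 180 and 112 CPM in SKOV-3. PEO-4 lay below every library of the other lines, with log2 fold changes of -1.64 ± 0.39 (SE) against T1074 and -1.65 ± 0.39 (SE) against SKOV-3 and edgeR adjusted p of 0.00172 and 0.00163. H3C6 was low but rose in both lines, from 11.6, 7.95, 4.58 and 6.81 CPM in T1074 to 22.1, 22, 19.5 and 20.2 CPM in PEO-4 and 19.2, 15.4, 14.5 and 11.7 CPM in SKOV-3. T1074 lay below the other lines in all libraries, with log2 fold changes of 1.45 ± 0.23 (SE) and 0.99 ± 0.22 (SE) and adjusted p of 3.97e-05 and 0.00123. H3C15, the H3 gene of highest TPM, cannot be told apart from H3C14 by most reads. The pair had means of 614, 295 and 294 CPM in T1074, PEO-4 and SKOV-3, with log2 fold changes of -1.06 ± 0.34 (SE) and -1.06 ± 0.34 (SE) and adjusted p of 0.0114 and 0.0122.

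By position, of 11 tested genes of the chromosome 1 cluster that holds H2AC18 and H3C15, 7 were lower in PEO-4, beside 37.8% of all genes, and 8 in SKOV-3, beside 34.5%. None rose in either line, and the difference from all genes was not tested. They include 3 pairs of near-identical copies. With each pair counted once, 4 of 8 features were lower in PEO-4 and 6 of 8 in SKOV-3. The 7 became 2, 3 and 1 without PEO-4 replicates 1, 3 and 4, and 4 without T1074 replicate 1 or 4. The 8 became 5 without SKOV-3 replicate 3 or 4. H2BC18 had 241, 292, 182 and 195 CPM in T1074, 90.3, 140, 108 and 91.4 CPM in PEO-4, and 181, 129, 80.7 and 56.6 CPM in SKOV-3. Both carcinoma lines lay below T1074 in every library, with log2 fold changes of -1.08 ± 0.29 (SE) and -1.02 ± 0.29 (SE) and edgeR adjusted p of 0.00383 and 0.00618. H2BC18 was singled out here after its values were seen. In the distal cluster of chromosome 6, 5 of 30 genes were higher and 9 lower in PEO-4, beside 36.3% and 37.8% of all genes. In SKOV-3, 6 were higher and 7 lower, beside 33.3% and 34.5%. The 9 became 6 without PEO-4 replicate 1, 3 or 4 or T1074 replicate 1, and 14 without T1074 replicate 3. The 7 became 4 without SKOV-3 replicate 3 or 4 or T1074 replicate 1 or 2, and 9 without SKOV-3 replicate 1. In the proximal cluster 2 of 21 were higher and 7 lower in PEO-4, and 3 were higher and 3 lower in SKOV-3, beside the same shares of all genes. The 7 became 4 without PEO-4 replicate 4 and 10 without T1074 replicate 3. Without SKOV-3 replicate 4 the 3 higher became 5, and the 3 lower became 5 without SKOV-3 replicate 1 and 1 without any other library except PEO-4 replicates 1 and 2 and T1074 replicate 3.

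Some histone genes have a second annotated end, far past the stem-loop. Of 101 annotated transcripts of the 69 genes, 24 were long-tail forms, with more than 150 bases after the stop codon or a spliced end. RSEM divided the reads between overlapping forms by estimate. Short-tail forms held 96.0% to 98.9% of histone counts in each library. Of the 83 transcripts tested in edgeR over 76043 transcripts, 7 were higher and 17 lower in PEO-4 than in T1074, beside 21.6% and 20.3% of all transcripts. In SKOV-3, 10 were higher and 9 lower, beside 18.9% and 17.3%. Against SKOV-3, PEO-4 had 10 higher and 22 lower, beside 22.9% and 22.1%. The 17 became 8 to 11 without T1074 replicate 2 or 4 or PEO-4 replicate 1, 3 or 4, the 9 lower in SKOV-3 became 20 without SKOV-3 replicate 1, and the 10 higher in PEO-4 than in SKOV-3 became 6 without SKOV-3 replicate 2.

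Most counts of H3C6 were assigned to its long-tail form, a transcript of 2679 bases with 2 exons. That form held 60.5%, 61.3%, 66.2% and 56.5% of H3C6 counts in T1074, 63.3%, 59.0%, 69.6% and 67.5% in PEO-4, and 65.5%, 64.5%, 69.5% and 71.5% in SKOV-3. The shares of the lines overlapped. They are shares of counts, which are not divided by transcript length as TPM is, and so are not shares of molecules. The long form rose in PEO-4 by 1.58 ± 0.23 (SE) and the short form by 1.33 ± 0.32 (SE) on the log2 scale, with edgeR adjusted p of 1.66e-04 and 0.00505. The H2AC25 long form held 10.6% to 30.6% of that gene's counts over the 12 libraries. H2BC21 was annotated only with a form of 2224 bases, and it had 43.6, 15.9 and 10.4 TPM in T1074, PEO-4 and SKOV-3. Those TPM rest on that annotated length.

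H4C16 and H4C8 were singled out after their shares were seen, as were H2AC25 and H2BC21 above. In H4C16, the H4 gene on chromosome 12, the long-tail share was 4.07%, 2.96%, 5.24% and 3.02% in PEO-4, 0.283%, 0.342%, 1.12% and 0.434% in T1074, and 0.305%, 0.341%, 0.606% and 0.839% in SKOV-3. PEO-4 lay above all other libraries. The short form fell there by -1.14 ± 0.19 (SE) and the long form rose by 1.77 ± 0.44 (SE) against T1074, with edgeR adjusted p of 5.43e-04 and 0.00685. In H4C8 the long-tail share was 1.89%, 1.82%, 2.22% and 2.49% in SKOV-3 and at most 1.25% in the other libraries. Shares were compared for 14 genes in 3 comparisons with an exact two-sided permutation test, which with 4 against 4 libraries cannot go below 0.0286. An unadjusted p under 0.05 was reached by 1 gene in PEO-4 against T1074, 1 in SKOV-3 against T1074 and 4 in PEO-4 against SKOV-3. Over the 42 tests the lowest adjusted p was 0.200, so none passed. With this floor and 42 tests, a few genes without overlap could not pass the adjustment. The outcome therefore does not show that the shares were alike.

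Genes that make histone RNA moved in both directions. Of 25 genes of histone transcription and of the processing of histone mRNA, 14 were lower and 5 higher in PEO-4, beside 37.8% and 36.3% of all genes. In SKOV-3, 13 were lower and 7 higher, beside 34.5% and 33.3%. SLBP, which binds the stem-loop, had 102 ± 16.1, 97.2 ± 9.96 and 51.8 ± 4.98 CPM in T1074, PEO-4 and SKOV-3 (mean ± SD, n = 4), and its log2 fold changes were -0.07 ± 0.12 (SE) in PEO-4 and -0.98 ± 0.12 (SE) in SKOV-3, with edgeR adjusted p of 0.595 and 6.39e-06. NPAT, the coactivator of histone genes that cyclin E and CDK2 act on, fell by -0.79 ± 0.11 (SE) and -1.10 ± 0.11 (SE). CASP8AP2, a further component of the histone locus body, fell by -0.56 ± 0.09 (SE) and -0.99 ± 0.09 (SE). HINFP had 28.1 ± 6.2, 25.3 ± 2.26 and 17.5 ± 1.04 CPM, with an adjusted p of 0.327 in PEO-4 and 5.56e-04 in SKOV-3. CDK2 fell from 125 CPM to 20.1 CPM in PEO-4 and 17.1 CPM in SKOV-3, and CCNE2 from 24.5 CPM to 3.41 and 4.50 CPM. CCNE1, the other cyclin E gene, rose from 1.62 CPM to 4.63 and 12.5 CPM. LSM10, a subunit of the U7 particle that cleaves histone RNA, had 15.5, 11.7 and 51.0 CPM and was lower in PEO-4 than in SKOV-3, by a log2 difference of -2.13 ± 0.17 (SE).

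Histone chaperones and variants complete the pathway. Of 24 chaperone genes, 13 were lower and 7 higher in PEO-4, beside 37.8% and 36.3% of all genes. In SKOV-3, 13 were lower and 5 higher, beside 34.5% and 33.3%. The subunits of CAF-1, which deposits new histones behind the replication fork, were among the lower genes. CHAF1A fell from 35.9 CPM to 4.98 CPM in PEO-4 and 9.19 CPM in SKOV-3, and CHAF1B from 75.7 CPM to 11.6 CPM and 22.1 CPM. ASF1B, which hands H3 and H4 to CAF-1, fell from 80.7 CPM to 19.8 CPM and 7.48 CPM. Replication-independent histone genes are expressed outside S phase and have polyadenylated RNA. Of 12 tested, 9 were lower and 1 higher in PEO-4, and 6 lower and 3 higher in SKOV-3. They stand beside the same shares of all genes as the chaperones. H2AZ1, the H2A variant of promoters, had 273, 57.1 and 167 CPM.

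The label of T1074 as epithelial was checked against marker genes. EPCAM had 0.0964 CPM and CDH1 0.354 CPM in T1074 on average, against 163 and 148 CPM in PEO-4 and 24.5 and 25.9 CPM in SKOV-3. The keratin genes KRT8 and KRT18 had 616 and 328 CPM in T1074, 584 and 340 CPM in PEO-4, and 437 and 150 CPM in SKOV-3. Of the 10 markers, 8 were higher in each carcinoma line than in T1074, beside 36.3% of all genes in PEO-4 and 33.3% in SKOV-3. KRT18 was lower in SKOV-3. The 10 epithelial markers summed to 713 to 1943 CPM in T1074, 3104 to 4453 CPM in PEO-4 and 1058 to 1959 CPM in SKOV-3. The 8 fibroblast and mesenchymal markers summed to 834 to 2447, 70.4 to 111 and 992 to 2478 CPM. Of these 8, 7 were lower and 1 higher in PEO-4 than in T1074, with a median log2 fold change of -5.38. In SKOV-3, 5 were lower and 3 higher, with a median of -4.31, so the similar sums do not describe most of the list. Of all genes, 37.8% were lower in PEO-4 and 34.5% in SKOV-3. The part of the marker genes in the histone differences was not tested. Blood markers summed to at most 0.318 CPM and endothelial markers to at most 3.04 CPM.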

How the data were processed

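RNA was measured in 12 libraries of 3 cell lines, 4 each, by strand-specific sequencing after ribosomal RNA depletion. The authors aligned reads to hg38 with STAR 2.7.3a and deposited expected counts and TPM for each transcript from RSEM 1.3.1 with Gencode 39. TPM that the authors deposited was used for levels compared between genes. Symbols and coordinates came from GENCODE 44, which matched 61415 of 61533 gene identifiers. Promoter sequences came from RefSeq.

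Expected counts were summed by gene and rounded to whole numbers. Genes passing filterByExpr were scaled with TMM and tested in edgeR 4.0.16 with the quasi-likelihood F test on the 12 libraries together. P-values were adjusted by Benjamini-Hochberg, and a gene was called under 0.05. Long-tail shares were compared with exact permutation tests. The fit was also run on simulated counts with 200 changed genes, far fewer than were called here. That run does not test the shares of genes called in these data. Library totals were 19780836 to 38583368 counts for T1074, 38690954 to 47148161 for PEO-4 and 47340136 to 55739060 for SKOV-3. Intervals cover counting error only, since reads carry no molecular identifiers.

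The genes named were those of highest TPM in each class, those of largest change in each direction and comparison, and those called in opposite directions in both carcinoma lines. The members, gene lists and rules were chosen with earlier results of these data known. Alternatives included DESeq2 1.42.0, other scalings and filters, a replicate block, leaving out each library and, chosen after seeing the data, summing near-identical pairs.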

Additional observations from a re-analysis of the deposited data

Results flagged for a closer look

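Of 117 groups of 4 libraries, 13 held 1 library whose gap to its nearest neighbor was large against the range of the group, where chance gives about 1 in 20. In T1074, replicate 3 was low for H2AC18 (359 CPM, the others 484 to 494), for H4C12 (179 CPM, the others 294 to 306) and for the summed H4 class (1113 CPM, the others 1875 to 1998). In PEO-4, replicate 2 was high for H2AC18 (435 CPM, the others at most 269), H2BC12 (238 CPM, the others 167 to 169), H4C12 (351 CPM, the others 213 to 232), H1-3 (394 CPM, the others 257 to 265) and the summed H1 class (1129 CPM, the others 793 to 841). H1-4 was low in PEO-4 replicate 3 (169 CPM, the others 203 to 209). H4C6 had 0.0390 CPM in SKOV-3 replicate 1 and 0 in the others, a difference of 2 counts. Of the long-tail shares, H2BC26 was low in PEO-4 replicate 2 (1.67%, the others 2.68% to 2.88%), H4C14 was high in PEO-4 replicate 1 (17.6%, the others 2.99% to 4.98%), and H4C15 was high in SKOV-3 replicate 4 (4.42%, the others 1.14% to 1.49%). H4C14 and H4C15 are near copies, and the division of their reads rests on RSEM's estimate.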

How the results depend on the processing

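Among values recomputed under an alternative, 289 stayed within 1.5 times, or within the spread between replicates, of the reported value, and 32 did not. At an adjusted p of 0.01, 4 histone genes were higher and 15 lower in PEO-4 than in T1074, 7 were lower in SKOV-3, and 4 were higher in PEO-4 than in SKOV-3. Requiring a log2 change of 1 or more in size, 3 were higher and 12 lower in PEO-4. Among genes with whole counts only, 11 were lower in PEO-4 and 8 in SKOV-3. The shares of all genes under these settings are not given here, so the counts describe the members only. Testing every feature with at least 1 count gave 15 histone genes higher in SKOV-3, and for transcripts 10 lower in PEO-4 than in T1074 and 6 higher in PEO-4 than in SKOV-3. Of protein-coding counts and of other protein-coding counts, the histone share was 1.33% and 1.35% in T1074 and 0.951% and 0.961% in PEO-4. The causes of these shifts were not tested.

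Leaving out each library in turn gave 13 to 34 genes lower in PEO-4 than in T1074, 9 to 14 higher and 10 to 23 lower in SKOV-3, and 6 to 11 higher in PEO-4 than in SKOV-3. For transcripts it gave 8 to 20 lower in PEO-4, 7 to 20 lower in SKOV-3, and 6 to 12 higher in PEO-4 than in SKOV-3.

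With a replicate block, 8 genes were higher and 26 lower in PEO-4, and 11 higher and 20 lower in SKOV-3. Deviations of libraries with the same number in different lines correlated at -0.106 to 0.0843, and those with different numbers at -0.151 to 0.218. These values cannot tell whether libraries with the same number were prepared together. Scaled by library size only, the median of all genes was -0.17 in PEO-4 and -0.23 in SKOV-3 against T1074, and the histone median -0.74 and -0.18, a shift that the scaling gives to all genes alike. With DESeq2, 7 histone genes were higher and 23 lower in PEO-4, and 11 higher and 17 lower in SKOV-3. With near-identical pairs summed, an alternative chosen after seeing the data, 22 and 16 were lower. For the replicate block, DESeq2 and the summed pairs, the shares of all genes are not given here, so the counts describe the members only. With 4 libraries a line, small differences between lines may be missed.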
